A study of Mus musculus with 6 samples.

Results

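The clustered histone genes were compared between 2 kinds of mouse bone marrow derived macrophages. The probe sets were those whose annotated genes include a clustered histone gene, that is, a gene whose older symbol begins with Hist1h, Hist2h, Hist3h or Hist4h. The platform annotation used here gives the current symbols, so no entry carried an older name, and the genes were reached through their Entrez identifiers and the older symbols in a RefSeq gene table. Of 70 such genes, 69 were named by at least 1 probe set, and H2ac14, a pseudogene, by none. They led to 58 of the 28941 probe sets on the array, each the signal of 1 transcript cluster. Of these, 31 name 1 gene and 27 name several, up to 20. By histone type there were 5 probe sets for H1, 6 for H2A, 18 for H2B, 13 for H3 and 13 for H4, and 3 more name genes of more than 1 type.

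Marrow of C57BL/6 mice had been induced for 7 days with CSF1 (M-CSF) to give M(CSF1) cells, or with CSF2 (GM-CSF) to give M(CSF2) cells. RNA was hybridised to Affymetrix Mouse Gene 1.0 ST arrays, 3 per group, described in the labels as biological replicates. No label ties an array to a mouse, so the p-values cover the spread among these 6 samples only, and part of that spread may be technical. The cells were sorted, but the marker used and the age and number of the mice were not stated. Values are log2 signals as deposited, and every difference is M(CSF2) minus M(CSF1). Adjusted p-values come from limma, by Benjamini-Hochberg over all 28941 probe sets, and a probe set was called at an adjusted p under 0.05. Array medians lay between 3.91 and 4.00. As a floor for dim probe sets, 3.36 was taken, the 95th percentile of the means of 1029 olfactory receptor probe sets.

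The 8 macrophage markers lay above that floor in both groups, with a mean level per array of 10.10 to 10.20 in M(CSF1) and 10.06 to 10.15 in M(CSF2). Of these 8, Fcgr1, Adgre1 and Lyz2 were called lower and Csf1r, Cd68 and Cd14 higher. Markers of erythroid precursors (4 probe sets, mean level 3.48 to 3.58 over all arrays), granulocyte precursors (7, 3.25 to 3.62), mast cells (4, 2.86 to 2.97), B lineage cells (3, 3.13 to 3.43), T and NK cells (4, 3.14 to 3.34) and stromal cells (4, 3.94 to 4.14) lay near the floor as lists, with Ltf called higher below the floor and Cd4 called lower (4.21 to 3.34). Progenitor markers had a mean level of 3.50 to 3.65 in M(CSF1) and 3.84 to 3.98 in M(CSF2), with Kit, a growth factor receptor, called higher among 4. Of 6 dendritic cell markers 3 were called higher, Itgax and Ccr7 well above the floor and Clec9a below it in both groups (mean level 3.89 to 3.98 against 5.45 to 5.55). The part of these cell types in the histone results was not tested.

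Core histones H2A, H2B, H3 and H4 form the nucleosome around which DNA is wound, and the linker histone H1 binds where DNA enters and leaves it. Most clustered histone genes are transcribed mainly in S phase, when new chromatin needs histones. Their mRNAs typically end in a stem-loop in place of a poly(A) tail. Some members can also give polyadenylated mRNA outside S phase, and many of the separate replacement histone genes are expressed throughout the cell cycle. Coding sequences within a core histone type are nearly the same from gene to gene, so 1 probe set can name many genes, and its signal cannot be split between them.

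Histone types did not move together. The probe sets shared by the H3 genes were on average 2.34-fold lower in M(CSF2), those shared by the H2B genes 1.33-fold to 1.37-fold lower, and the bright probe sets shared by the H4 genes and by the H2A genes gave differences near 0. The linker histone gene H1f2 moved against them and was 5.26-fold higher in M(CSF2). Of the 58 probe sets 24 were called lower and 5 higher. Over the whole array 14.4% of probe sets were called lower and 10.3% higher. The groups did not overlap in 26 of the 58 in the lower direction and 7 in the higher, next to 18.8% and 17.6% of the array. The median difference of the 58 was -0.16, and that of all probe sets 0.03. Of the 24 called lower, 17 were probe sets of the shared H3 and H2B genes. With probe sets that name the same genes averaged to 1 row, 40 rows were left, 10 of them lower and 5 higher, at a median of -0.05. Among the 31 probe sets with 1 gene, 7 were lower and 4 higher. Of these, limma called 0 of 3 for H3 (1 lower at an unadjusted p under 0.05), and 3 of 11 lower and 1 higher for H2B. In bulk RNA of this kind, fewer cells that make a transcript and less of it per cell cannot be told apart.

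**Figure D1:**
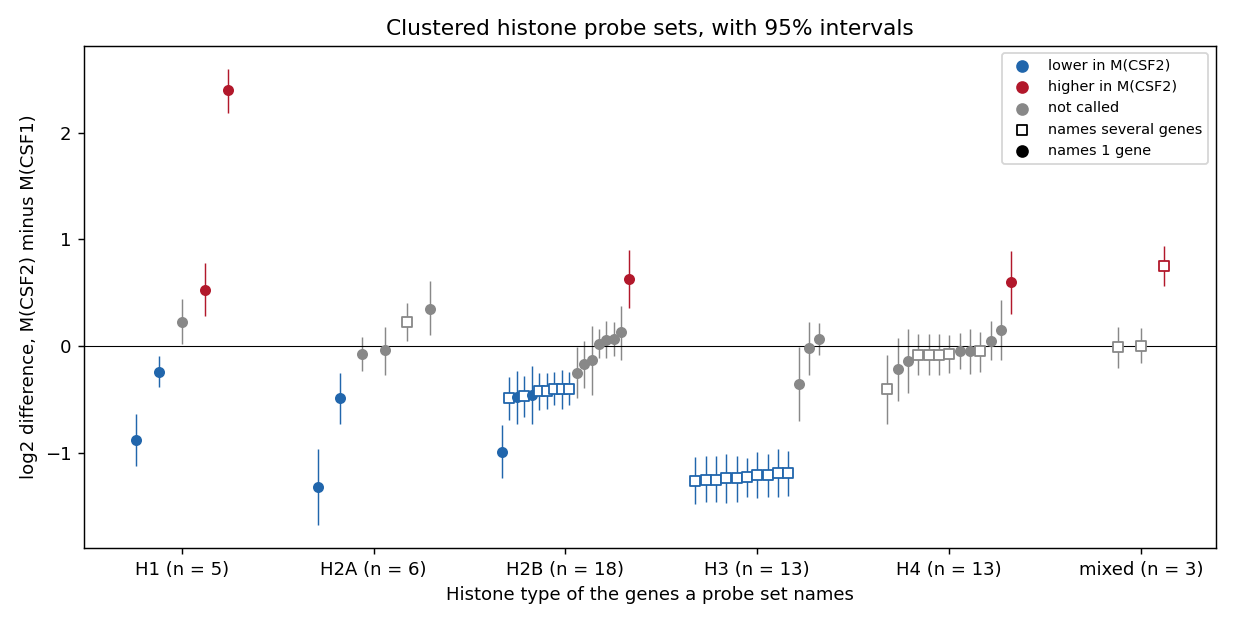
Log2 difference between M(CSF2) and M(CSF1) cells for each of the 58 clustered histone probe sets, grouped on the x axis by histone type, with the 95% interval of each from limma (3 arrays per group). Open squares name several genes and filled circles 1 gene; the 10 shared H3 probe sets sit together between -1.26 and -1.19, the 5 that name 11 H4 genes between -0.08 and -0.05, and H1f2 stands at 2.40.

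H3 is the core histone whose tail carries many of the known chromatin marks. Its 12 clustered genes (H3c1 to H3c4, H3c6 to H3c8, H3c10, H3c11 and H3c13 to H3c15) were all named together by 10 probe sets. Averaged over these, the signal was 10.02, 10.12 and 10.07 on the M(CSF1) arrays and 8.73, 9.01 and 8.78 on the M(CSF2) arrays. M(CSF2) replicate 2 was the highest of its group, and the groups were far apart. The averaged row fell by 1.23 (SE 0.09, limma adjusted p = 7.8e-05), which is 2.34-fold lower with a 95% interval of 2.02 to 2.71. Each of the 10 was called on its own, with falls from -1.26 to -1.19, but they cannot count as 10 separate results because they name the same genes. Only 3 probe sets name a single H3 gene, and they were dim. H3c7 (2.06 to 2.22 over the 6 arrays) and H3c15 (2.28 to 2.59) stayed below the floor on every array. H3c4 read 3.51, 3.72 and 3.72 against 2.99, 3.57 and 3.32, which gave -0.35 (limma adjusted p = 0.14). Which of the 12 genes carried the fall was not measured.

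H2B pairs with H2A in the nucleosome. Its shared genes were read by 7 probe sets, 3 naming 14 genes and 4 naming these and the testis-type gene H2bc1 as well. One of the genes has the current symbol H4bc24, although its older symbol, Hist1h2br, places it with H2B. The 4 broader probe sets averaged 8.97, 9.00 and 9.00 in M(CSF1) and 8.56, 8.68 and 8.51 in M(CSF2), and the other 3 averaged 9.00, 9.10 and 9.13 against 8.55, 8.75 and 8.57. Neither set overlapped between groups. The falls were 0.41 (SE 0.07, limma adjusted p = 0.0042), 1.33-fold with an interval of 1.19 to 1.49, and 0.45 (SE 0.08, limma adjusted p = 0.0051), 1.37-fold with an interval of 1.20 to 1.56. A pair of the broader probe sets held identical values on all 6 arrays.

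Among the 11 H2B probe sets with 1 gene, 3 fell and 1 rose. H2bc3 (older symbol Hist1h2bb) read 5.46, 5.49 and 5.34 in M(CSF1) and 4.23, 4.61 and 4.47 in M(CSF2), a fall of 0.99 (SE 0.11, limma adjusted p = 0.00049) or 1.99-fold. H2bc4 (Hist1h2bc) went the other way, from 9.13, 8.79 and 8.71 to 9.55, 9.47 and 9.51. That is a rise of 0.63 (SE 0.11, limma adjusted p = 0.0055) or 1.55-fold, with an interval of 1.29 to 1.87, and its groups did not overlap. H2bc4 is also one of the genes named by the shared H2B probe sets, which fell. The falls of H2bc14 (-0.48, limma adjusted p = 0.014) and H2bc9 (-0.46, limma adjusted p = 0.025) were less firm. H2bc14 lost its call without M(CSF1) replicate 1 (limma adjusted p = 0.062), M(CSF2) replicate 1 (0.067) or M(CSF2) replicate 3 (0.056). H2bc9 lost its call without M(CSF1) replicate 2 (limma adjusted p = 0.085), M(CSF1) replicate 3 (0.082), M(CSF2) replicate 1 (0.10) or M(CSF2) replicate 3 (0.078). Quantile normalization ended both calls (H2bc14 -0.37, limma adjusted p = 0.071, and H2bc9 -0.35, limma adjusted p = 0.12). The remaining 7, H2bc1, H2bc8, H2bc18, H2bc21, H2bc22, H2bu2 and the pseudogene H2bu1-ps, gave -0.25 to 0.13 and were not called. H2bc22 lay below the floor on all 6 arrays. In H2bu1-ps 5 of the arrays held the same rounded value, 4.19.

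H2A, the partner of H2B, split by probe set. The brightest member of all names 20 genes: 18 clustered ones, which are H2A genes except H3c4, and the replacement genes H2ax and H2aj. It read 11.50, 11.51 and 11.50 in M(CSF1) and 11.40, 11.58 and 11.52 in M(CSF2), a difference of 0.00 with a 95% interval of -0.16 to 0.17 (limma adjusted p = 0.99). A second probe set, which lacks H2aj, gave -0.01 (interval -0.20 to 0.18) around means of 10.67 and 10.66. The groups overlapped in both. Against these level values, the probe set of H2ac4 (Hist1h2ab) alone read 7.24, 7.09 and 7.09 in M(CSF1) and 5.70, 6.17 and 5.58 in M(CSF2). It fell by 1.32 (SE 0.15, limma adjusted p = 0.00068), or 2.50-fold with an interval of 1.95 to 3.21. H2ac15 (Hist1h2ak) fell by 0.49, from 5.20, 5.22 and 5.47 to 4.83, 4.92 and 4.67 (limma adjusted p = 0.010). Both genes are also named by the 2 bright probe sets that did not move.

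The other H2A genes had readings of their own. H2aw (Hist3h2a), which lies apart from the large clusters on chromosome 11, read 6.63, 6.63 and 6.71 against 6.91, 7.24 and 6.87. The groups did not overlap, as in 17.6% of all probe sets in the higher direction. The difference of 0.35 missed the threshold (limma adjusted p = 0.055). A probe set shared by H2aw and Trim17, which encodes a ubiquitin ligase, gave 0.23 (limma adjusted p = 0.064). After quantile normalization both were called higher (H2aw 0.45, limma adjusted p = 0.032, and the shared one 0.32, limma adjusted p = 0.038). H2aw was also called with dim probe sets left out (limma adjusted p = 0.028) and among single-gene probe sets only (0.048), and its p with 1 array left out ran from 0.052 to 0.17. The testis-type gene H2ac1 gave -0.07, and H2ac8 stayed below the floor on every array.

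The fall in H2ac4 and H2bc3 concerns neighbours. In the RefSeq gene order of chromosome 13 they stand next to each other, with no other clustered histone gene between them. Of the 56 clustered genes on that chromosome 23 had a probe set of their own, 7 of them lower, 4 higher and 12 not called. The gene H1f2, which rose, stands 2 places before H2bc3, with H3c3 between them, and H1f1, which fell, stands 5 places after H2ac4. Rises and falls were thus found within the same stretch of the cluster. The 8 single-gene probe sets of chromosomes 3, 6 and 11 gave 0 calls by limma, and 1 of them, H2aw, had an unadjusted p under 0.05. Among them were H4c14 at 0.15, H4f16 at 0.05 and H3c15, which lay below the floor on every array. Over the whole array 24.7% of probe sets were called in either direction. A difference between chromosomes was not tested.

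**Figure D2:**
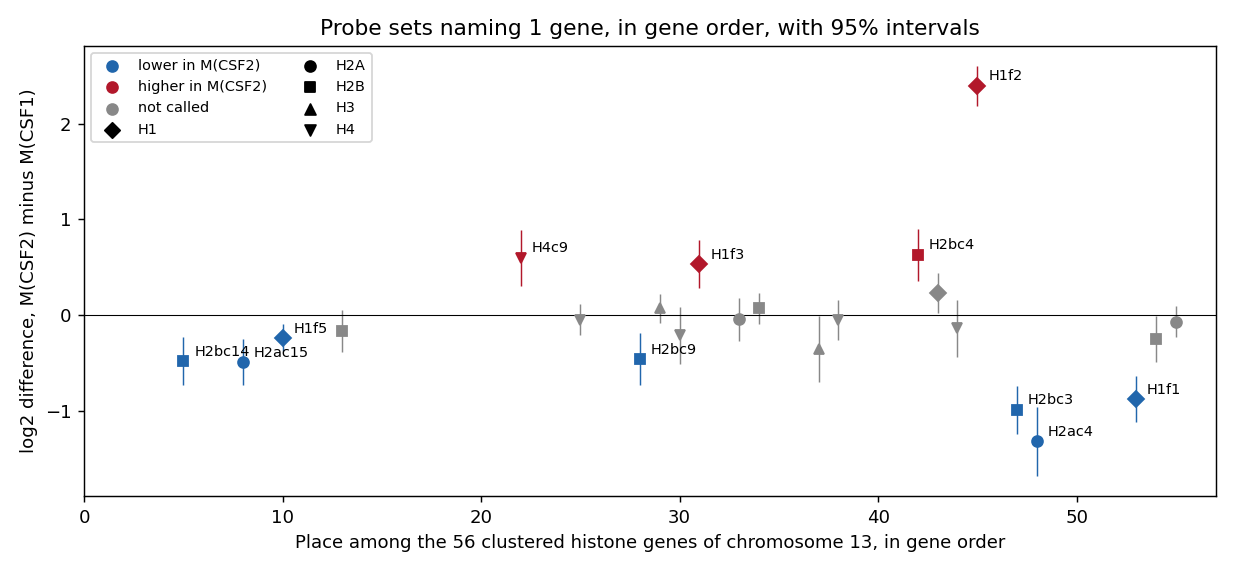
Log2 difference with its 95% interval from limma for the 23 probe sets that name 1 clustered histone gene of chromosome 13, against the place of the gene among the 56 clustered genes in order along the chromosome. Marker shape gives the histone type, and the 11 called genes are named; H2bc3 and H2ac4, both lower, stand side by side near H1f2, which was higher by 2.40.

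The start regions of both neighbours are shown because they fell together. They are the 150 bases before the annotated start, from RefSeq windows of build GRCm38.p6, on the plus strand at chr13:23746584-23746733 for H2bc3 and chr13:23750938-23751087 for H2ac4. Capitals mark 4 motifs on either strand: the TATA box (TATAAA), the CCAAT box (CCAAT), the octamer (ATTTGCAT) and the H1 box (AAACACA), none of which overlaps another here. A motif on the other strand appears as its reverse complement.
H2bc3: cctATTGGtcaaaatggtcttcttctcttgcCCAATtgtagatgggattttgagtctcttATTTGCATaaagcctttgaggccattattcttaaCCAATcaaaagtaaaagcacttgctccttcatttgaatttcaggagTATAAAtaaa
H2ac4: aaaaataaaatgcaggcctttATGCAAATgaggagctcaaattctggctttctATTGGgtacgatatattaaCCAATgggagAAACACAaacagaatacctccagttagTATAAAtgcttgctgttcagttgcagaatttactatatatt
Both carry an octamer, CCAAT on both strands and TATAAA, and H2ac4 also carries the H1 box. Windows of 300 bases, from 250 before to 50 after the start, were available for 62 of the 70 genes. The octamer was found in 7 of 18 H2A windows and 6 of 16 H2B windows, in no H1, H3 or H4 window, and in 1.74% of all 32851 windows. Among single-gene probe sets with a window it stood in 3 of 7 that fell, 0 of 3 that rose and 6 of 16 that were not called. A match of letters is a description, not a site, and H2bc4, the H2B gene that rose, had no window.

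H4 is the core histone that pairs with H3. Its 11 genes on chromosome 13 were named together by 5 probe sets, of which a pair held identical values. Their average was 10.34, 10.43 and 10.44 in M(CSF1) and 10.21, 10.42 and 10.36 in M(CSF2), and the groups overlapped. The difference was -0.07 (SE 0.08, limma adjusted p = 0.57) with an interval of -0.26 to 0.11. The shared H3 probe sets had an interval of -1.44 to -1.01. The intervals of the shared H2B ones, -0.64 to -0.26 and -0.57 to -0.25, reach that of H4. No test between types was run. The signal of the shared H3 probe sets relative to the shared H4 ones was -0.38 to -0.31 on the M(CSF1) arrays and -1.58 to -1.41 on the M(CSF2) arrays. For H2B relative to H4 the values were -1.39 to -1.36 and -1.83 to -1.65. Within each array, then, the H3 and H2B readings moved relative to H4 in the same direction on all 3 M(CSF2) arrays, further for H3. The H4 and H2A-rich probe sets were among the brightest. Of all 685 probe sets with a mean above 10 on the log2 scale, 61.2% were called, 38.7% lower and 22.5% higher. The part of brightness in the values near 0 was not tested.

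Single H4 genes gave similar values. H4c4, at 10.08, 10.16 and 10.18 against 9.95, 10.25 and 10.07, gave -0.05, with an interval of -0.26 to 0.16. H4c6, H4c3, H4c8, H4f16 and H4c14 gave -0.21 to 0.15, and 0 of these 5 were called by limma, with 0 at an unadjusted p under 0.05. A probe set for H4c11 and H4c17 read 4.58, 4.42 and 4.37 against 3.75, 4.17 and 4.25. Its groups did not overlap, as in 18.8% of all probe sets in the lower direction. It missed the threshold at a difference of -0.40 (limma adjusted p = 0.079). It was called lower after quantile normalization (-0.44, limma adjusted p = 0.047) and with dim probe sets left out (limma adjusted p = 0.034). The exception was H4c9 (Hist1h4i), which rose from 6.11, 5.72 and 5.92 to 6.40, 6.71 and 6.44. Its groups did not overlap, and the rise of 0.60 (SE 0.13, limma adjusted p = 0.011) is 1.51-fold with an interval of 1.23 to 1.86. H4c9 too is named by the shared H4 probe sets that did not move.

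H4 promoters differed from the others in their letters. CCAAT on either strand was present in 6 of 6 H1, 18 of 18 H2A, 16 of 16 H2B and 10 of 10 H3 windows, but in 3 of 12 H4 windows, next to 37.4% of all windows. The 150 bases before the start of H4c9, at chr13:22041363-22041512 of GRCm38.p6 on the minus strand, are shown as the one H4 gene that rose. They hold TATAAA far from the start and no CCAAT. The similar letters tataag, which were not searched, stand nearer to the start.
H4c9: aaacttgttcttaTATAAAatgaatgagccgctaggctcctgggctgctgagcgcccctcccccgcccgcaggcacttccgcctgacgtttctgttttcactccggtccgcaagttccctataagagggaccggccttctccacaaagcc

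**Figure D3:**
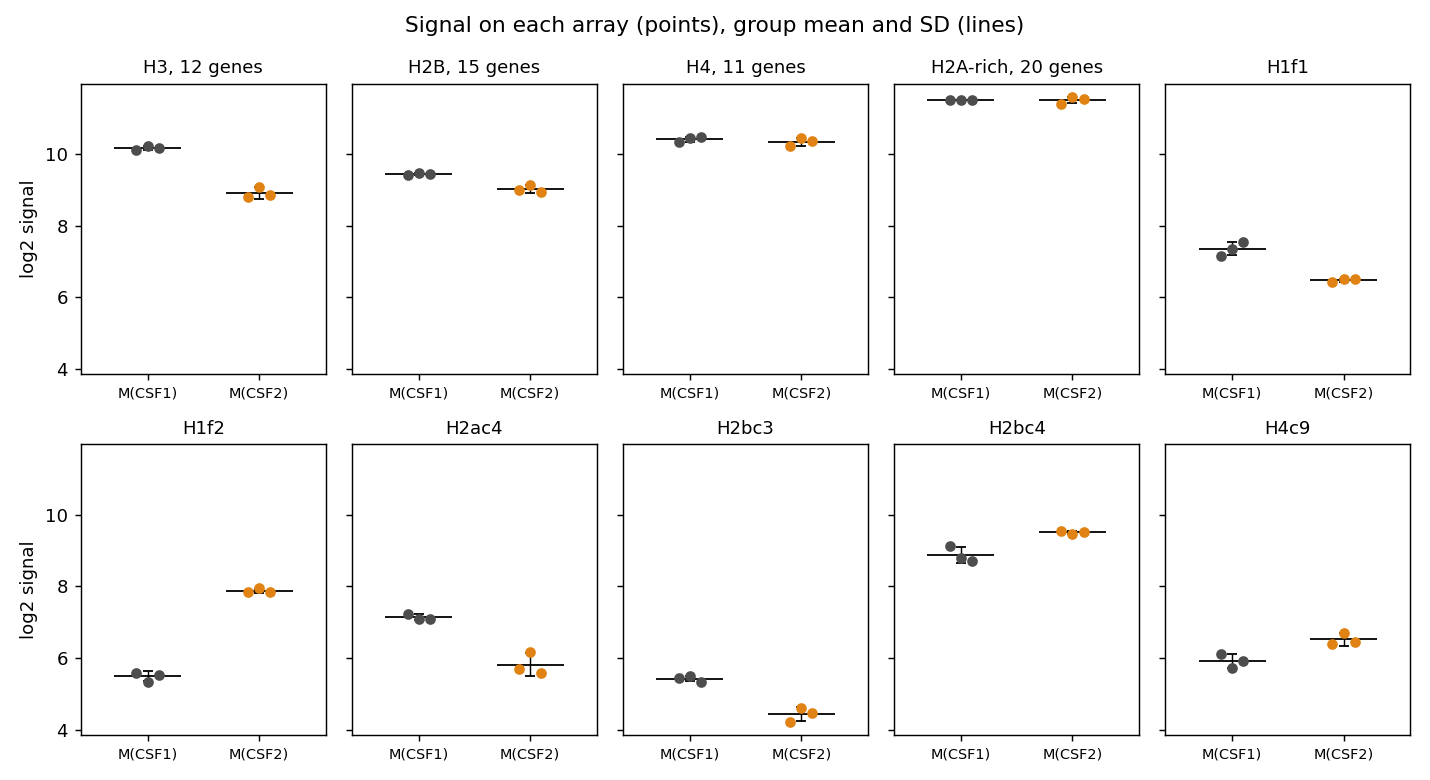
Log2 signal on each of the 3 M(CSF1) and 3 M(CSF2) arrays for 10 clustered histone probe sets, with the group mean and SD as lines. The top row shows probe sets that name many H3, H2B, H4 or H2A genes and the linker histone gene H1f1, the bottom row single genes; the groups are apart in all panels but those of H4 and the H2A-rich probe set.

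The linker histones, which compact chromatin and limit access to DNA, differed most among themselves. H1f2 (Hist1h1c, encoding H1.2) read 5.60, 5.33 and 5.53 in M(CSF1) and 7.85, 7.95 and 7.85 in M(CSF2). Its rise of 2.40 (SE 0.09, limma adjusted p = 4.1e-06) is 5.26-fold with an interval of 4.57 to 6.07, the largest difference among the 58 probe sets. H1f1 (Hist1h1a, encoding H1.1) read 7.16, 7.36 and 7.54 against 6.43, 6.50 and 6.50. It fell by 0.88 (SE 0.10, limma adjusted p = 0.00073), or 1.84-fold with an interval of 1.56 to 2.18. The groups overlapped in neither gene, and the fall of H1f1 and the rise of H1f2 were each called with any 1 array left out.

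The other linker histone genes moved less. H1f5 (Hist1h1b) read 5.98, 6.03 and 6.04 against 5.75, 5.76 and 5.83 and fell by 0.24 (limma adjusted p = 0.027). Its call was lost without M(CSF1) replicate 2 (limma adjusted p = 0.083), M(CSF1) replicate 3 (0.055), M(CSF2) replicate 1 (0.067) or M(CSF2) replicate 2 (0.058), after quantile normalization (-0.15, limma adjusted p = 0.20), with an intensity trend (0.064) and with the replicate block (0.094). H1f3 (Hist1h1d) lay below the floor on all M(CSF1) arrays, at 3.11, 3.03 and 2.96, and read 3.48, 3.78 and 3.42 in M(CSF2). It was called higher (0.53, limma adjusted p = 0.0093), and from the floor the rise is at least 1.15-fold. The testis gene H1f6 gave 0.23 (limma adjusted p = 0.11), with all M(CSF1) arrays and 2 of the M(CSF2) arrays below the floor. H1f4 has no probe set of its own and shares one with H2bc6. That probe set read 5.71, 5.72 and 5.68 in M(CSF1) and 6.30, 6.53 and 6.52 in M(CSF2), a rise of 0.75 (SE 0.08, limma adjusted p = 0.00048) or 1.68-fold. It cannot be assigned to the H1 or the H2B gene.

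The 150 bases before the start of 4 linker histone genes are set side by side, since a pair of them fell and the other pair rose. They lie on build GRCm38.p6 at chr13:23763518-23763667 (H1f1, plus strand), chr13:21780626-21780775 (H1f5, minus strand), chr13:23738657-23738806 (H1f2, plus strand) and chr13:23554882-23555031 (H1f3, plus strand), with the same motifs in capitals.
H1f1: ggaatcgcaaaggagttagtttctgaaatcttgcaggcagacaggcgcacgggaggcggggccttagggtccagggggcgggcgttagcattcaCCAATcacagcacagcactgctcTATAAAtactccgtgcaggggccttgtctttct
H1f5: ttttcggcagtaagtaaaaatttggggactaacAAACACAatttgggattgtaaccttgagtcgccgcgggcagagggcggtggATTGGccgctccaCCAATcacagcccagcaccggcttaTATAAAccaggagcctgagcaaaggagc
H1f2: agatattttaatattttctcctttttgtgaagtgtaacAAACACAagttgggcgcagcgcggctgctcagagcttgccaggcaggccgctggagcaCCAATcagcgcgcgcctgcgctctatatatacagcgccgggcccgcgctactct
H1f3: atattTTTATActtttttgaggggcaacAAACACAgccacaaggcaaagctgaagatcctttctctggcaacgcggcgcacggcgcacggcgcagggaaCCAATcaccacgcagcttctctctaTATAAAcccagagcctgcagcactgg
The H1 box, found in 5 of 6 H1 windows and in 7.18% of all windows, is absent from the letters of H1f1 and present in the other 3. All 4 hold CCAAT on the strand of the gene. H1f2, the gene that rose most, has no TATAAA in its window, but its printed bases hold the similar letters tatatata near the start. Only the exact letters TATAAA were searched, so variants of the TATA box are not marked in any of the sequences.

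Genes of DNA replication were lower almost throughout. Of 25 probe sets for 23 S phase genes, 24 were lower, at a median of -1.68. The replicative helicase subunit Mcm6 (-3.65), the cyclin Ccna2 (-3.35) and the ribonucleotide reductase subunit Rrm2 (-3.02) fell most. In the same comparison 14.4% of all probe sets were lower. Tyms, a nucleotide synthesis enzyme, lost its call without M(CSF2) replicate 1 (limma adjusted p = 0.053), and the cell cycle regulator E2f2 gave -0.15 (limma adjusted p = 0.38). Beside this median the shared H3 probe sets stood at -1.23, the shared H2B ones at -0.45 and -0.41 and the shared H4 ones at -0.07.

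Of 6 regulators of histone gene transcription 5 were lower, next to 14.4% of all probe sets. Npat, the coactivator that switches histone genes on in S phase, read 4.86, 4.43 and 4.53 against 3.67, 3.57 and 3.77 and fell by 0.94 (SE 0.12, limma adjusted p = 0.0011). The cyclins Ccne1 and Ccne2, which with Cdk2 phosphorylate Npat, fell by 1.34 and 1.19, Ccne2 to below the floor (at least 2.16-fold). Cdk2 fell by 0.59. Casp8ap2, a histone locus body protein also called FLASH, fell by 0.62 to below the floor, at least 1.36-fold. Hinfp, which activates H4 genes, read 5.08 ± 0.18 against 4.75 ± 0.09 (SD, n = 3 arrays each) and was not called (-0.33, limma adjusted p = 0.058). Its groups did not overlap, as in 18.8% of all probe sets in the lower direction. Hinfp was called lower after quantile normalization (limma adjusted p = 0.042), after median centring (0.025) and with dim probe sets left out (0.031).

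Histone mRNA processing and decay genes had 8 of 20 probe sets lower, for 17 genes, at a median of -0.27. Of all probe sets 14.4% were lower. Slbp, the protein that binds the stem-loop, fell by both of its probe sets. One read 7.13, 7.29 and 7.01 against 6.03, 6.02 and 5.99 (-1.13, SE 0.08, limma adjusted p = 8.8e-05), the other fell by 1.33 (limma adjusted p = 0.00069). Eri1, an exonuclease that trims histone mRNA ends, fell by 0.93, and the cleavage factor subunit Cstf2 by 0.91. Lsm10 and Lsm11, the subunits particular to the U7 particle that directs the cut, gave 0.02 and 0.13 and were not called (limma adjusted p = 0.94 and 0.51).

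Histone chaperones and deposition factors had 15 of 19 probe sets lower and 1 higher, for 18 genes, at a median of -0.95. The shares over the whole array were 14.4% lower and 10.3% higher. Asf1b, a chaperone of newly made H3 and H4, read 7.75, 7.97 and 8.04 against 5.10, 5.48 and 4.93 and was 6.74-fold lower (interval 5.28 to 8.61, limma adjusted p = 2e-05). The helicase subunit Mcm2, which also binds H3 and H4, fell by 2.03 and the assembly factor subunit Chaf1a by 1.40. The Mcm2 probe set is also counted in the S phase list. Hat1, which acetylates new H4, fell by 1.34. Hira, which deposits replacement H3 outside replication, was called 0.27 higher (limma adjusted p = 0.034). With 1 array left out, that call was kept only without M(CSF2) replicate 2 (limma adjusted p = 0.046). It was lost with an intensity trend (limma adjusted p = 0.062), median centring (0.092) or the replicate block (0.091). It was also lost without M(CSF1) replicate 1 (0.099), 2 (0.069) or 3 (0.076) and without M(CSF2) replicate 1 (0.059) or 3 (0.086). Asf1a, the other form of Asf1 beside Asf1b, gave 0.30 (limma adjusted p = 0.22).

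The genes of the replacement histone list did not share 1 direction. Of 13 probe sets for 12 genes, 4 were lower and 1 higher, with a median of 0.07. Of all probe sets 14.4% were lower and 10.3% higher. H2az1 (H2A.Z), placed at gene starts, read 9.99, 10.15 and 9.99 against 9.20, 9.47 and 9.31 by its brighter probe set and fell by 0.72 (SE 0.09, limma adjusted p = 0.0010). Its other probe set, also counted as lower, gave -0.74. Its relative H2az2 fell by 0.51 (limma adjusted p = 0.013), but not without M(CSF2) replicate 1 (0.064) or 3 (0.052). H2ax, the form phosphorylated at DNA breaks, was called at -0.27 (limma adjusted p = 0.049) and of the fits with 1 array left out kept the call only without M(CSF1) replicate 3 (0.045). Quantile normalization (-0.16, limma adjusted p = 0.26), the intensity trend (0.077), the robust variance (0.052) and the replicate block (0.065) ended it. The count of lower probe sets was 2 without M(CSF2) replicate 1 or without replicate 3.

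One replacement linker histone rose. H1f10 (H1fx) read 5.75, 5.53 and 5.68 in M(CSF1) and 6.53, 6.79 and 6.83 in M(CSF2), a rise of 1.06 (SE 0.10, limma adjusted p = 0.00028) or 2.09-fold with an interval of 1.77 to 2.47. The centromeric H3 gene Cenpa gave -0.34 (limma adjusted p = 0.11) and was called lower after median centring (-0.38, limma adjusted p = 0.041). The macroH2A genes Macroh2a1 (0.08), Macroh2a2 (0.18) and Macroh2a3 (0.12), H2aj (0.07) and the germ line genes Hils1 (0.10) and H1f8 (0.25) were not called by limma; at an unadjusted p under 0.05 the list held 5 lower and 1 higher. H3f3a was below the floor on all 6 arrays by its own probe set. H3f3b and H1f0 had no probe set of their own and were not analysed here.

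**Figure D4:**
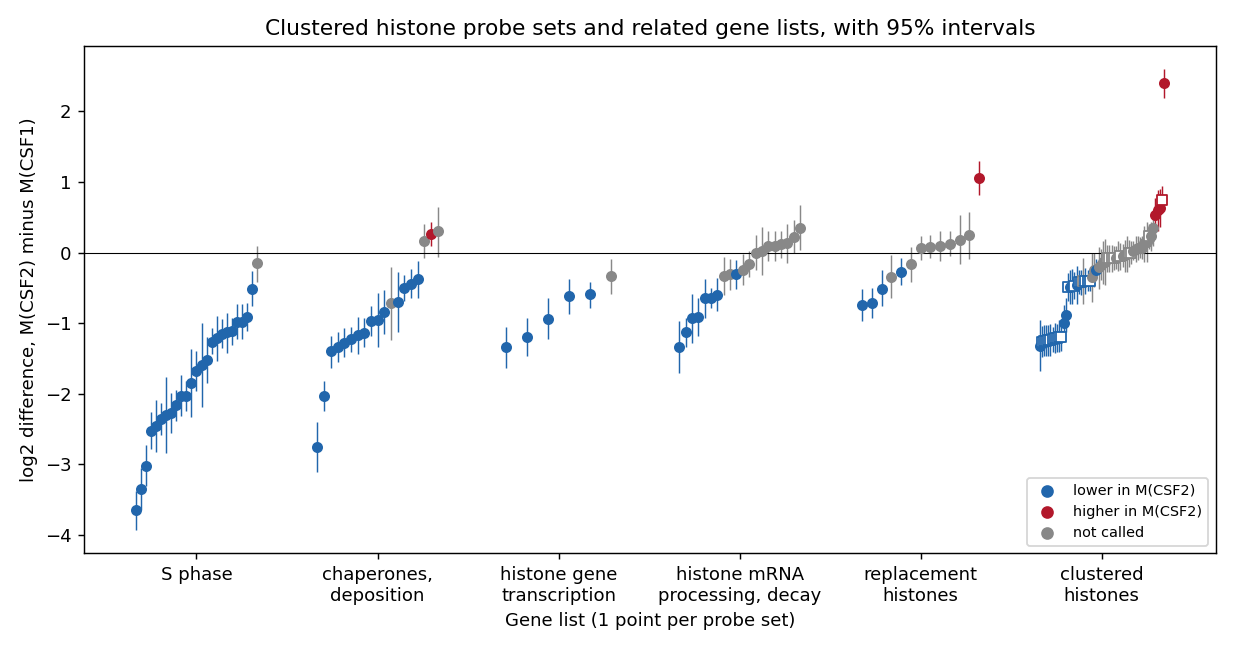
Log2 difference with its 95% interval from limma for each probe set of 5 gene lists and of the 58 clustered histone probe sets (x axis), coloured by call; open squares name several genes. The S phase list lies between -3.65 and -0.15, and the clustered histones between -1.32 and 2.40.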

How the data were processed

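RNA from 3 M(CSF1) and 3 M(CSF2) samples was measured on 1-colour arrays. The deposited table holds log2 signals per probe set. The base is read from the range of the values, 1.48 to 13.27. Per the submitters' processing notes the tool was MAS5; background correction, normalization and summarisation are not given in the sources used here. Values were used as deposited, without a filter.

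Over all probe sets, limma 3.58.1 (R 4.3.3; lmFit, then eBayes, 2-sided) gave the difference of the group means. The fit was tested on simulated data. The number of arrays limits the precision. Folds come from array signals, which can compress differences in transcript amount. Intervals are at 95%.

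Related lists were read from probe sets that name 1 gene. Named by rule were, per histone type, the brightest probe set, the 3 largest called falls and up to 3 called rises, all H1 probe sets, those called against most of their type, the 3 largest called changes in each direction per list, all replacement histones, Slbp, Npat, Hinfp, Casp8ap2, Lsm10 and Lsm11. Other genes named were chosen after their values were seen. The members and lists were chosen with earlier results of these data known. Promoter windows and gene order are from RefSeq, GRCm38.p6. Alternatives were other scalings, variance models, filters, a replicate block, and each array left out in turn. Averaging probe sets that name the same genes was added after seeing the data.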

Additional observations from a re-analysis of the deposited data

How the results depend on the processing

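Of the 29 called clustered histone probe sets, 26 kept their call in all 6 fits with 1 array left out, among them all 17 of the shared H3 and H2B genes and all 5 that rose. The exceptions were H1f5, H2bc14 and H2bc9. Leaving out 1 array gave 21 to 25 lower and 5 to 6 higher, with 1 to 2 lower for H1 and 0 to 1 higher for H2A. The counts were 8 to 11 lower for H2B and 10 to 11 lower for H3. Since the 10 shared H3 probe sets were called in all 6 fits, the added H3 call was of a single-gene probe set. Replacement histones had 2 to 4 lower and 1 to 2 higher, and chaperones 0 to 1 higher. Quantile normalization gave 22 lower and 7 higher, with 1 lower for H1, 2 higher for H2A, 1 lower for H4 and 3 higher for histone mRNA processing. Without probe sets below the median signal the median difference was -0.25, with 1 higher for H1, 1 higher for H2A and 1 lower for H4. Fewer probe sets were tested in that setting. With an intensity trend H1 had 1 lower and chaperones 0 higher (Hira not called), and with median centring chaperones also had 0 higher. With single-gene probe sets only, 7 were lower at a median of -0.05, 3 of them for H2B and 0 for H3, and H2A had 1 higher (H2aw). With 1 row per gene set, 10 were lower at a median of -0.05, 5 for H2B and 1 for H3. Both settings hold fewer rows by construction. For other changes the cause was not tested. The replicate number as a block called 6407 of all probe sets in place of 7139, 1 lower for H1 and 0 higher for chaperones. Same-numbered arrays of the groups correlated in their deviations at -0.01, -0.03 and -0.24, and differently numbered ones at -0.17 to 0.21. With 3 arrays per group these values are bound to each other, so they cannot decide whether the number pairs arrays.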
